A study of Mus musculus with 32 samples.

Results

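The genes described here build, move or switch on the motile cilium. They were taken by symbol from a table of 38740 gene symbols in the mouse subventricular zone. The rule took every symbol that starts with Dnah, Dnaic, Dnal, Dnali, Rsph, Tekt, Ift or Cfap and a number (an older Dnahc spelling included), and 12 further genes by name. It found 57 genes, on 58 lines of the table since Dnah12 had 2 lines. There were 44 structural, regulatory or other genes and 13 genes of intraflagellar transport, and 0 symbols of the Cfap form. No measured value entered the rule. The libraries came from the subventricular zone of the forebrain at postnatal day 21. There were 28 libraries of 1 cell each (S1 to S28) and 4 libraries of 10 cells each (P1 to P4, called pools here). No genotype, treatment, sort, strain or animal is named, so the 28 cells are 1 sample of cells, separate animals cannot be told apart, and no p-value was made.

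A motile cilium is a microtubule rod, the axoneme, in which doublets of microtubules surround a central pair. Dynein arms on the doublets slide them past each other, radial spokes carry signals between the central pair and the arms, and tektins run inside the doublets. Intraflagellar transport (IFT) trains carry the parts along the rod, IFT-B outward and IFT-A back, in motile and in primary cilia alike. Foxj1, a forkhead transcription factor, switches on the motile programme. In the forebrain the best-known bearers are the multiciliated ependymal cells that line the ventricles beside the subventricular zone, and the epithelium of the choroid plexus.

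Values are FPKM, the fragments per kilobase of transcript and per 1000000 mapped fragments, which the authors deposited. FPKM is scaled by length, but coverage along long transcripts was not tested and some lines hold only part of a gene. Levels of different genes are therefore compared only roughly. A gene was called found in a library at FPKM of at least 1. Depth could be read only roughly, from the smallest common step in genes of 1 exon. In cells S1 to S17, where the step was clear, it lay between 6.21 and 20.9 in units of 1000000 fragments, so that FPKM of 1 in a transcript of 2000 bases stood for about 11.2 to 37.6 fragments. An exact 0 can be a failed estimate: mt-Co1, which every cell uses, was listed at 0 in all 32 libraries. Cells S18 to S22 and cells S23 to S28 are 2 sets in which genes very high in 1 cell recur at a low level in the others. A limit that puts values under 2% of the set's highest value at 0 is quoted for the counts of cells it changes most.

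Pools P3 and P4 also go against their labels as separate samples. For each cell, genes of at least 50 FPKM there and under 2% of that value in every other cell were collected, with the 57 members left out. Such genes of S1, S2, S3, S7, S8, S9, S10, S16 and S17 were found in P3 at shares of 75% to 100%, and in P4 at shares of at most 13.6%. Such genes of S4, S5, S11, S12, S13, S14 and S15 were found in P4 at 80% to 95.9%, and in P3 at no more than 1.72%. Their levels kept a steady ratio to the cell, 10.8% of the S9 value in P3 at the median, with quartiles of 10.3% and 12.4%. Of all symbols found in P3, 99.5% were above 0 in those 9 cells, and of those found in P4, 99.8% were above 0 in the 7 cells of its set, against 91.4% to 96.6% for the other pairs of pool and set. P3 and P4 are therefore not treated as independent of these cells; whether they hold the same RNA was not tested. The rule for these sets was chosen after the data had been seen.

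A few cells held most of the members. S9 had 39 of the 57, where 18% of all symbols were found. S5 had 33 (26.2% of all symbols), S15 had 32 (13.5%) and S10 had 29 (17.6%). The next were S12 with 17 and S11 with 14, and S1 had 0. Thus S15, with fewer symbols than most of the first 17 cells, still had most of the members, as the plots of values and of shares by library show. Over the 44 members outside transport the gap was wider. S9 had 29, S15 had 26, S5 had 21 and S10 had 20, S11 had 10, and every other cell had 8 or fewer. Cells with at least 15 of these 44, a number set inside that gap, made up 4 of 28, or 14.3% (exact Clopper-Pearson 95% interval 4.03% to 32.7%, counting error only). In 6 cells (21.4%, 8.30% to 41.0%) none of the 44 was found. That count is without the limit of 2%. In S19 to S22 the only one of the 44 found was Dnal4, at 21.6, 21.8, 6.62 and 2.44 FPKM. The limit puts these values at 0, so with it more cells had none.

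**Figure D1:**
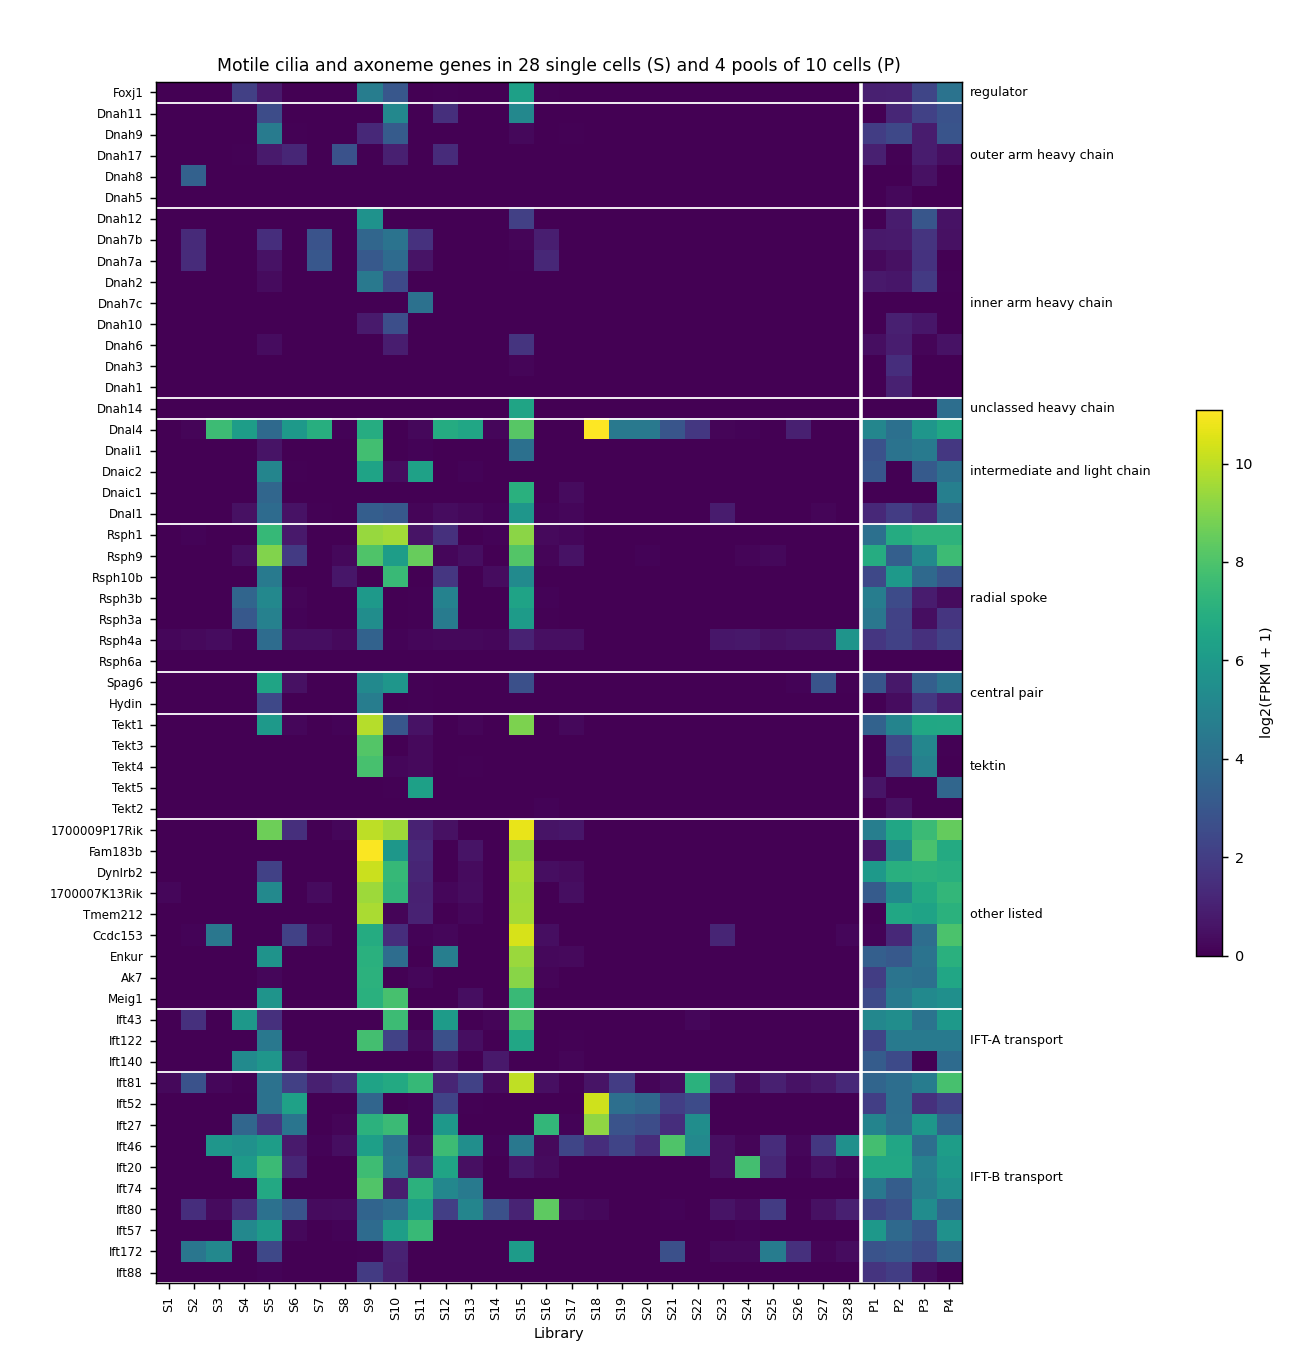
Heat map of log2(FPKM + 1) for the 57 members (rows, by class) in the 28 single cells and, right of the thick white line, the 4 pools (columns). The columns of S5, S9, S10 and S15 are bright across most classes, while the IFT-B rows are bright in many other cells, and S18 holds the brightest square of Dnal4 at 2376 FPKM.

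**Figure D2:**
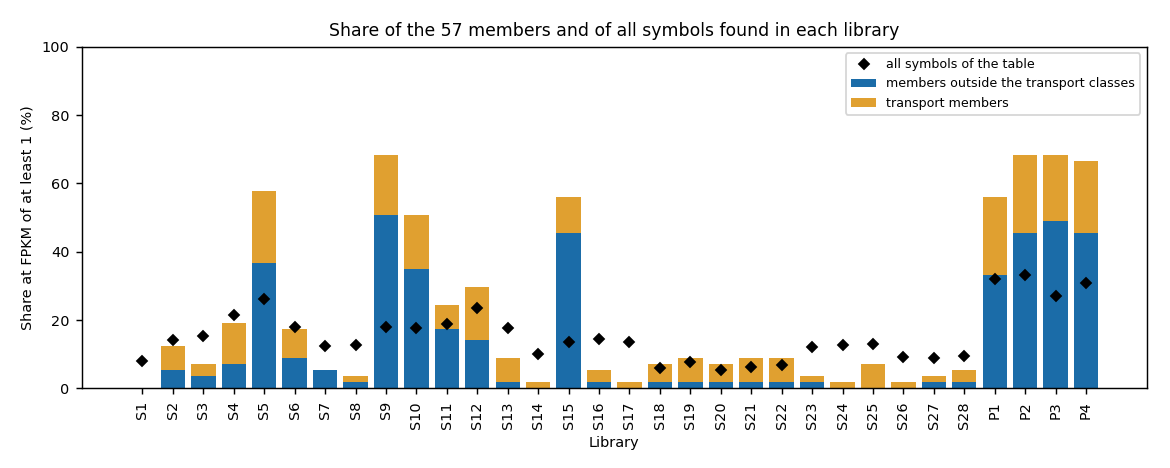
Share of the 57 members at FPKM of at least 1 in each library (stacked bars: blue, members outside transport; yellow, transport) with the share of all 38740 symbols as black diamonds. The bars stand far above the diamonds in S5, S9, S10, S15 and the 4 pools, and near or under them in most other cells, S1 being at 0.

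The highest single-cell value of a member was also concentrated. Of the 52 members found in some cell (48.7% of all symbols were), 16 were highest in S15, where 4.75% of all found symbols have their highest value. S9 held the highest value of 14 (4.55% of symbols), S10 of 6 (4.49%) and S5 of 4 (5.52%). S11 and S18 held 3 each. Of the members, 5 were found in no cell. Rsph6a was listed at 0 in all 32 libraries and Dnah1 in all cells, and Dnah3, Dnah5 and Tekt2 reached at most 0.110 FPKM in a cell. A count of 0 in 28 cells allows a share of up to about 10.7% of cells with the gene at this level. That bound is 3 of 28, an approximate 95% upper limit for counting error only, and not an exact interval.

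Markers of other cell types were read beside these counts. S5 had 6 of 7 choroid plexus markers, with a summed level of 3374 FPKM and Ttr, the thyroxine carrier of that tissue, listed at 0. Ttr was listed at 0 in 14 of 32 libraries. P4, which follows S5 among other cells, held these markers at 20537 FPKM in sum, almost all of it Ttr. The 0 of Ttr in S5 was thus not shown to be absence. S10 had 3 of 7 (43.9 FPKM in sum, with Clic6, Kcnj13 and Aqp1 at 0). S9 and S15 had 1 of 7 each, Folr1 at 195 FPKM in S9 and Ttr at 104 FPKM in S15, and Clic6, Kcnj13 and Aqp1 were at 0 in both. Of 6 astrocyte markers S15 had 5 (888 FPKM in sum), S9 had 4 (1064 FPKM), S10 had 3 (100.4 FPKM) and S5 had 1. Of 6 microglial markers S15 had 4, at 35.9 FPKM in sum, S5 had 1, and S9 and S10 had none. Of 8 ependymal genes that are no part of the axoneme, such as Tppp3 and Mlf1, S15 had 8, S10 had 7, S9 had 6 and S5 had 5, with sums of 13872, 8954, 8496 and 645 FPKM. S12 also had 7 of them (1448 FPKM), no other cell had more than 4, and sums in cells outside these reached 3326 FPKM, in S24. Of 6 oligodendrocyte markers each of S5, S9, S10 and S15 had 2, with sums of at most 12.6 FPKM in S5, S9 and S10 and 199 in S15. Of 6 endothelial markers S15 had 3, S5 and S9 had 1 each and S10 had 0, with sums of at most 5.34 FPKM. None of 6 neuroblast markers was found in these 4 cells. The part of any of these cell types in the results was not tested.

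Foxj1 (ENSMUSG00000034227, chr11:116330704-116335399 on GRCm38, minus strand) was found in 4 of 28 cells. Its level was 78.1 FPKM in S15, 25.1 in S9, 6.99 in S10 and 3.28 in S4. S5 lay just under the limit at 0.741 FPKM, and no other cell reached 0.1. The pools had 0.952 (P1), 1.02 (P2), 4.02 (P3) and 18 FPKM (P4). S9 and S15, which had the most members outside transport, were thus also the cells with the highest Foxj1. S4 had Foxj1 but only 4 of the 44 members outside transport, and S5 had 21 of them with Foxj1 under the limit.

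The heavy chains are the motors of the dynein arms and among the longest transcripts of the set. FPKM of 1 stands for more fragments in a longer transcript, but coverage along these long transcripts was not tested. A chain that was not found was thus not shown to be absent. Of the outer arm chains, Dnah11 was at 35.3 FPKM in S15, 35.1 in S10, 5.06 in S5 and 1.80 in S12. Dnah9 was at 23.4 FPKM in S5, 8.22 in S10 and 1.44 in S9, and at 0.812 to 6.31 in the pools. S5 and S10 thus carried both chains, and the highest cell differed between them. Dnah17 was highest in S8 (5.96 FPKM) and Dnah8 was found in S2 alone (9.91 FPKM); both are best known from the sperm tail. Exons of Dnah17 share 93 bases with Pgs1 on the other strand, so its low values are uncertain. Dnah5, a main chain of the outer arm in airway cilia, was found in no library, its highest value being 0.195 FPKM in P2.

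Inner arm heavy chains were low in FPKM. Dnah12 reached 48.9 FPKM in S9 and 3.24 in S15, and Dnah2 reached 21.7 in S9 and 4.67 in S10. Dnah10 was found in S10 alone (5.30 FPKM), Dnah6 in S15 alone (2.17) and Dnah7c in S11 alone (16.5). The Dnah7c line spans only chr1:46608961-46626111, far less than the lines of Dnah7a and Dnah7b. Its gene ID had no match in the gene models used here, so its value is uncertain. Of 9 such chains, S9 and S10 had 4 each, S15 had 2 and S5 had 1. Just under the limit stood, among others, Dnah10 at 0.766 FPKM in S9 and Dnah6 at 0.850 in S10. Dnah7b was at 17.8 FPKM in S10, 11.6 in S9 and 6.22 in S7, and its paralog Dnah7a ran beside it at 13.8, 7.60 and 7.09. These copies can share reads, as can Dnah7c, so their separate levels are uncertain. Dnah1 and Dnah3 passed the limit in P2 only, at 1.05 and 1.78 FPKM. The value of Dnah3 is uncertain: its exons share 1506 bases with Lyrm1 on the other strand, which stood at 17 FPKM in P2 and at 0 in P3 and P4, and the strand setting of the counting is not given in the sources used here.

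Dnah14, which was put in neither arm class, was found in S15 alone among the cells, at 88.4 FPKM, the highest value of any heavy chain. P4 had 15.3 FPKM and the other 3 pools 0. The line in the table spans chr1:181738988-181769674 (GRCm38), which is 12.8% of the span of the gene model, so a fragment of the gene was measured. Its gene model shares 440 exon bases with Lbr on the opposite strand, but Lbr stood at only 0.0465 FPKM in S15 and 1.12 in P4.

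Intermediate and light chains are further parts of the dynein arms. Dnaic1 was at 132 FPKM in S15 and 11.6 in S5, and Dnaic2 at 86.2 in S9, 79.7 in S11 and 32.6 in S5. Both are intermediate chains of the outer arm, and in no cell were both found but in S5. Dnali1, a light chain of inner arms, was at 211 FPKM in S9 and 16.3 in S15. Dnal1, a light chain of the outer arm, was at 56.3 FPKM in S15, 13.8 in S5, 8.97 in S9 and 7.60 in S10, and in no other cell above 1. Dnal4 was different, with 14 cells above the limit. It stood at 2376 FPKM in S18, at 299 in S15, at 193 in S3 and at 122 in S7. S19 to S22, the libraries of the set of S18, had 21.6, 21.8, 6.62 and 2.44 FPKM, all under 1% of S18, and with the limit of 2% it was found in 10 cells.

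Of the 7 radial spoke genes, S5 and S15 had 6 each, S9 had 5, S12 had 4 and S10 had 3. Rsph1, a spoke head protein, was at 764 FPKM in S10, 677 in S9, 574 in S15 and 172 in S5. Outside these it reached only 1.87 FPKM, in S12. Rsph9, another head protein, was at 511 FPKM in S5, 365 in S11, 278 in S15, 262 in S9 and 70.8 in S10. S11, a cell with 6 of 6 astrocyte markers and Foxj1 at 0.0290 FPKM, thus held the second highest Rsph9, while its Rsph1 was at 0.512. Rsph10b was at 181 FPKM in S10, 38.3 in S15, 21.8 in S5 and 2.38 in S12, and 0 in S9. Its exons share 85 bases with Pms2 and 325 with Gm42421, both on the same strand. Pms2 stood at 52.5 FPKM in S12 and at no more than 0.154 in S5, S10 and S15. The low value of Rsph10b in S12 is therefore uncertain. Rsph4a, a head protein of motile cilia, was highest in a cell with none of the other spoke genes, S28 (53.3 FPKM), ahead of S5 (14.2), S9 (10.3) and S15 (1.11). The spoke stalk genes Rsph3b and Rsph3a moved together, at 86.1 and 67.1 FPKM in S15, 62.3 and 42.1 in S9, 35.8 and 28.5 in S5, and 29.5 and 23.3 in S12. They are paralogs that can share reads, and neither was found in S10.

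The central pair was represented by Hydin and Spag6. Hydin, a very large protein of the central apparatus, was found in S9 (25 FPKM) and S5 (4.36) only. Spag6 was at 89.4 FPKM in S5, 56.5 in S10, 37.8 in S9, 6.41 in S27 and 5.46 in S15. The line called Spag6 lies on chromosome 16 and carries the gene ID of the gene now named Spag6l.

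Tektins were spread unevenly over these cells. Tekt1 (chr11:72344722-72362442, GRCm38, minus strand) was at 942 FPKM in S9, 487 in S15, 61.1 in S5 and 7.07 in S10. No other cell reached 1. Tekt3 and Tekt4 were found in S9 alone among the cells, at 281 and 234 FPKM, and S15 stood at 0 for both. Tekt5 was found in S11 alone (79.0 FPKM), and Tekt2 in no library, its highest value being 0.418 in P2. S9 therefore had 3 of the 5 tektins and S5, S10, S11 and S15 had 1 each.

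Most of the genes taken by name reached their highest level in S9 or S15. Fam183b was at 2109 FPKM in S9, 649 in S15, 57.3 in S10 and 1.46 in S11. The gene 1700009P17Rik, now named Cfap126, was at 1698 FPKM in S15, 1033 in S9, 726 in S10 and 401 in S5. Ccdc153 was at 1363 FPKM in S15, 114 in S9, 20.3 in S3, 3.45 in S6, 1.75 in S10 and 1.20 in S23. Dynlrb2, a light chain of the roadblock family, was at 1182 FPKM in S9, 825 in S15, 175 in S10 and 3.45 in S5. The pattern of high S9 and S15 held for the rest of this class, with S10 and S5 varying by gene. Tmem212, a membrane protein, was at 816 FPKM in S9 and 774 in S15, and 0 in S5. Ak7, an adenylate kinase of motile cilia, was found in S15 (557 FPKM) and S9 (141) only. The gene 1700007K13Rik was at 754 FPKM in S15, 717 in S9, 159 in S10 and 36.1 in S5. Enkur was at 698 FPKM in S15, 131 in S9, 50.6 in S5, 26.1 in S12 and 14.8 in S10. Meig1, first known from sperm formation, was the one gene of this class with S10 in front, at 233 FPKM, ahead of S15 (184), S9 (132) and S5 (52.2). All 9 of these genes that are no part of another class were found in S9 and in S15, 7 in S10 and 5 in S5. S11 also had 5 of them, all just above the limit: Fam183b, Dynlrb2 (1.20), 1700009P17Rik (1.11), Tmem212 (1.1) and 1700007K13Rik (1.04). Dynlrb1, the general paralog of Dynlrb2, was found in 17 of 28 cells (60.7%, exact interval 40.6% to 78.5%; 14 with the limit of 2%) and was highest outside these cells, at 478 FPKM in S6. In S15 Dynlrb1 was at 0.324 FPKM while Dynlrb2 was at 825.

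Pairs of cells show how far the structural sets coincided. S9 and S15 shared 21 of the members outside transport, which is 72.4% of the 29 in S9 and 80.8% of the 26 in S15. Of the symbols that are no member, the same pair shared 47.4% and 63.0%. S10 and S5 shared 14, or 70.0% of the 20 in S10 and 66.7% of the 21 in S5, against 77.5% and 51.9% of other symbols. The other pairs shared 15 to 18. S5 and S9 shared 85.7% and 62.1% (52.2% and 76.4% of other symbols), S5 and S15 81.0% and 65.4% (39.2% and 76.4%), S9 and S10 58.6% and 85% (63.0% and 64.2%), and S10 and S15 75% and 57.7% (47.2% and 61.5%). By both shares, members stood above other symbols in the pair of S9 and S15 only. Of these 44 members, 10 were found in all of S5, S9, S10 and S15, 11 in 3 of them, 9 in 2, 5 in 1 and 9 in none. The 10 were Dnal1, Rsph1, Rsph9, Spag6, Tekt1, Dynlrb2, Enkur, Meig1, 1700009P17Rik and 1700007K13Rik. These cells were singled out by the same values, so the counts describe them and test nothing.

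**Figure D3:**
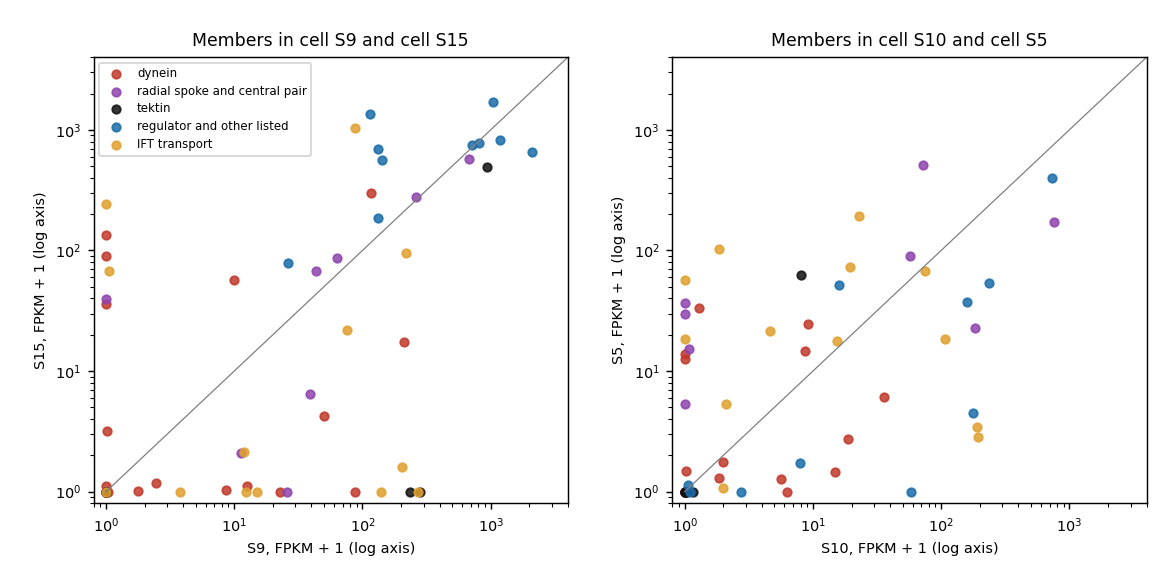
FPKM + 1 of each member in S9 against S15 (left) and in S10 against S5 (right), both axes logarithmic, coloured by class, with the line of equal values. Members at the upper right are high in both cells, such as Fam183b at 2109 and 649 FPKM, and points on an axis were found in 1 cell of the pair only, such as Tekt3 at 281 and 0.

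At the median, transport genes were found in more cells than the structural genes. Of those found in some cell, the median was 8 cells for the 13 transport members and 4 for the 39 others, against 6 for all such symbols. With the limit of 2% these medians were 6, 4 and 5. Within transport and without the limit, the median was 8.5 cells for the 10 IFT-B genes (range 1 to 17). For the 3 IFT-A genes it was 5 (2 to 6), so the wide spread was one of IFT-B genes. All 13 transport members were found in at least 1 cell, and only 2 cells had none. Of the IFT-B genes, Ift46 was found in 17 cells, Ift81 in 14, Ift80 in 13 and Ift27 in 12. With the limit of 2% Ift46 was found in 14 cells and Ift27 in 9.

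Of the 13 transport members, 3 were highest in S9, 3 in S15 and 1 in S5, while the others peaked away from the cells rich in structural genes. Ift81 was highest in S15 (1039 FPKM), followed by S11 (170), S22 (135) and S10 (105). Ift52 was at 1270 FPKM in S18, 79.7 in S6, 17.3 in S5 and 11.3 in S9, and under the limit of 2% it was found in 5 cells in place of 9. Ift27, a small GTPase of the train, was at 618 FPKM in S18, 190 in S10, 162 in S16 and 139 in S9. Ift80 was highest in S16 (324 FPKM) and next in S11 (74.1), Ift20 in S24 (220 FPKM) ahead of S9 (202) and S5 (191), and Ift46 in S21 (262 FPKM) ahead of S12 (193). S16 had 1 member outside transport, and S18, S21 and S24 had 1, 1 and 0, so these high transport values stood without structural genes. The one structural gene of S18 and S21 was Dnal4, and in S21 the limit of 2% puts it at 0.

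The 3 IFT-A genes differed among themselves. Ift122 was at 218 FPKM in S9, 93.5 in S15, 20.6 in S5, 5.59 in S12 and 3.63 in S10. Ift43 was at 242 FPKM in S15, 192 in S10, 66.5 in S12 and 59.95 in S4. Ift140 was found only in S5 (56.1 FPKM) and S4 (39.2). S5 was the cell with the most transport genes, 12 of 13, though its summed structural level of 1586 FPKM was far under S9 (9487) and S15 (9750). S15 had 6 of 13 transport genes, and S12 had 9 with a summed structural level of 201 FPKM, but 23.4% of all symbols were found in S12 and 13.5% in S15. Ift20, Ift27, Ift52, Ift57, Ift74, Ift88 and Ift140 were not found in S15.

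Likeness to Foxj1 was described by Spearman correlation of FPKM over the 28 cells, for symbols found in 2 or more cells. Depth differs between the cells, S18 to S28 fall into 2 library sets and most values are 0, so the coefficients are descriptions. Of 42 members tested, 28 had a rho of at least 0.5, against 15% of 15717 symbols, and the median was 0.617 for members and 0.240 for all. Outside transport it was 22 of 30 (median 0.650), and among transport genes 6 of 12 (median 0.477). Ak7 and Ift122 had the highest rho, 0.797 each, followed by Rsph3a and Rsph3b at 0.789 and Dynlrb2 at 0.782. Traces of Foxj1 in S11, S12, S13 and S16, at 0.0288 to 0.0512 FPKM, also enter the ranks. The order of the genes thus rests in part on trace values, and Ak7 was found in only 2 cells. The lowest were Ift172 at 0.0819, Ift52 at 0.104 and Ift140 at 0.146. Hydin (0.498) and Spag6 (0.502) stood on either side of the limit. Of the marker lists, 6 of 8 ependymal genes, 4 of 6 astrocyte and 3 of 6 oligodendrocyte markers reached 0.5, and 0 of the endothelial, microglial, neuroblast and choroid plexus markers did; their part in the likeness was not tested. Without S18 to S28 the count was 27, against 12.1% of symbols, and leaving out S4, S9, S10 or S15 in turn it ran from 24 to 30.

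**Figure D4:**
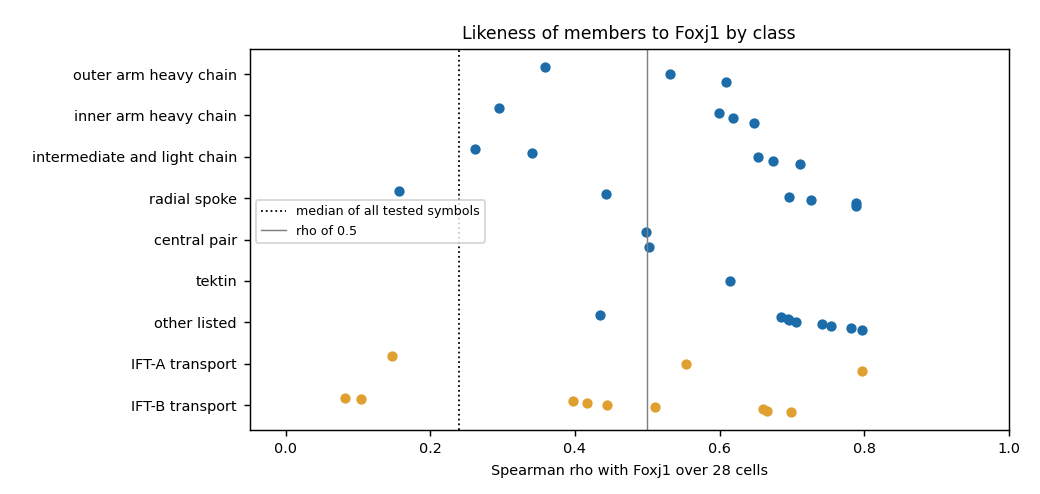
Spearman rho with Foxj1 over the 28 cells for the 42 tested members, 1 point a gene, by class (yellow, transport); the dotted line is the median of all tested symbols, 0.240, and the grey line is 0.5. Most structural genes lie right of 0.5, whereas IFT-B genes spread from 0.0819 to 0.699.

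Promoter sequences were read because the members moved together. Of the 57 members, 45 matched a RefSeq promoter window of 300 bases on GRCm38.p6, 250 before to 50 after the start. The letters GTTGCCA, the core bound by the RFX factors that act with Foxj1 on cilia genes, were searched on both strands. They were in the windows of 6 of the 45 (13.3%), against 5.02% of 27025 genes. The 6 were Tekt1, Hydin, Dnah7b, Dnah10, Ift27 and Ift88. The forkhead letters GTAAACA, also on both strands, were in 3 (Ak7, Dnah17 and Tekt3; 6.67%) against 4.05%. RFX sites are often an inverted repeat, the X-box, which can overlap the core. A rigid form of it, GTTNCC and GGNAAC with 2 letters between, was in 0 of 45, against 0.529% of genes. Another form, GTTGC and GCAAC with 3 letters between, was chosen after these windows had been seen, so its count is no more than a description. It was in 8 of the 45 (17.8%), against 0.252% of genes: Dnah6, Dnah7a, Dnah7b, Dnaic2, Dynlrb2, Rsph3b, Tekt2 and Tekt4. The count thus differed with the letters searched. In Tekt1, Hydin and Ift27 the core lay directly before the start, and the 100 bases up to that start are shown 5′ to 3′ along each gene, with the core, or its reverse complement in Hydin, in capitals. Tekt1 lies at chr11:72361883-72361982 on the minus strand, Hydin at chr8:110266877-110266976 on the plus strand and Ift27 at chr15:78174082-78174181 on the minus strand. Their first capital letter is 15, 14 and 9 bases before the start. RefSeq gives 2 windows for Tekt1, of which the one shown holds the core, and its start lies 560 bases inside the end of the line in the table. For the repeat with 3 letters between, 80 bases are shown for Dynlrb2 (chr8:116504917-116504996, plus strand) and Tekt4 (chr17:25471507-25471586, plus strand), with the repeat in capitals, 51 and 36 bases before the start.
Tekt1: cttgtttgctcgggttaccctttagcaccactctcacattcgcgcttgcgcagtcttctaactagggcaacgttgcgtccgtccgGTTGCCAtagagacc
Hydin: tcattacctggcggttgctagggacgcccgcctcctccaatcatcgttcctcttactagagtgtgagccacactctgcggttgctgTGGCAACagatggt
Ift27: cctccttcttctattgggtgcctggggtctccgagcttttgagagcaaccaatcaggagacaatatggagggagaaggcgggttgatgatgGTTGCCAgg
Dynlrb2: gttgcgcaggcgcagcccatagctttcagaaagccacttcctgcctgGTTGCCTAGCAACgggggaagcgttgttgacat
Tekt4: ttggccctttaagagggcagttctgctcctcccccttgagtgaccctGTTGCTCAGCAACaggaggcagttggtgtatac
The genes with the core did not share a pattern over cells: Tekt1 was found in S5, S9, S10 and S15, Hydin in S5 and S9, and Ift27 in 12 cells. Nor did those with the repeat, since Dynlrb2 was found in 5 cells, Tekt4 in S9 alone and Tekt2 in none. A match of letters is a description, not a site.

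The other genes of the motile apparatus were read from lists of related genes. The share of all tested symbols with a rho with Foxj1 of at least 0.5 was 15%. The nexin link and molecular ruler genes, which tie the doublets and set the spacing of arms, had such a rho in 6 of 6. Ccdc40 was at 461 FPKM in S15, 322 in S9, 168 in S10 and 12.2 in S12. Drc1 was at 180 FPKM in S10, 133 in S9 and 6.97 in S15, and Ccdc65 was found in S9 (156 FPKM), S15 (68.9), S10 (52.0) and S5 (22). Ccdc39 was highest in S11 (29.7 FPKM) and S4 (26.2), ahead of S15 (12.5), S5 (9.13), S10 (2.01) and S9 (1.56). Ccdc40 and Drc1 were not found in S5, so these genes did not share 1 pattern over cells. Other central pair genes had 3 of 5, with Nme5 at 597 FPKM in S15, 217 in S10, 149 in S5 and 97.8 in S9. Spef2 was at 132 FPKM in S10, 100.3 in S15 and 5.24 in S5, and Spef1 at 217 in S10 but also at 342 in S25 and 135 in S22.

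Dynein arm assembly and docking genes had a rho of at least 0.5 in 4 of 10, against 15% of all tested symbols. Zmynd10 was at 312 FPKM in S9, 74.1 in S10 and 18.2 in S5 but 0.0503 in S15, Armc4 at 109 in S10, 58.1 in S9, 7.94 in S5 and 0 in S15, and Dnaaf1 at 192 in S9 only. S15, which had arm chains such as Dnaic1 and Dnal1, had 3 of the 13 assembly and docking genes, against 7 each in S5, S9 and S10. Of 11 genes of multiciliation control 6 could be tested and 2 reached 0.5. Rfx2 was at 91.7 FPKM in S9 and 49.8 in S10, Rfx3 at 106 in S11, and Rfx1 in none of S5, S9, S10 and S15. Mcidas and Trp73 were found in no cell.

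Further lists held genes that serve primary cilia or the cell body as well. At a rho of at least 0.5, transport motors and further IFT genes had 10 of 16, the BBSome, a cargo adaptor, 1 of 8, and cytoplasmic dynein 1 of 9. The BBSome and cytoplasmic dynein were thus near the 15% of all tested symbols. Dync2li1, a light intermediate chain of the IFT motor, was at 350 FPKM in S15, 345 in S22, 207 in S10, 143 in S11, 86.2 in S9 and 82.4 in S5. Kif3a, a kinesin of the outward train, was at 182 FPKM in S22, 175 in S4, 120 in S15 and 108 in S5, and Hspb11 was found in 21 cells (17 with the limit of 2%) with its highest value, 712, in S22. Of the BBSome, Bbs5 was found in 17 cells (12 with the limit), highest in S25 (884 FPKM), Bbs2 was at 370.0 FPKM in S27 and 160 in S4, and Bbs7 at 1339 in S26. Dynll1, a light chain of many complexes, was found in all 28 cells (24 with the limit), at 3813 FPKM in S9 and 3567 in S15 but 6115 in S17. Dync1i2 was found in 25 cells, highest in S19 (1556 FPKM), and Dynlt1a in 18, or 21 and 16 with the limit.

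Over all symbols that are no member, the 10 whose log2(FPKM + 1) was most like the mean of the members outside transport were Capsl, Wdr78, Gm15649, Iqck, Ccdc65, Spag8, Kdelr3, Ccdc92, Smim5 and Chchd6. Their Pearson r over 28 cells ran from 0.961 to 0.984, over 11810 symbols at FPKM of at least 10 in 2 or more cells. Capsl was at 258 FPKM in S15, 180 in S9, 23.6 in S10 and 10.2 in S5, and at no more than 0.189 in any other cell. Kdelr3 was at 1014 FPKM in S9 and 124, 94.2 and 18.3 in S10, S15 and S5. Smim5 was the one of these found in 5 cells, the last at 7.95 FPKM.

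In the pools more members were found than in most cells: 32 in P1 (32.1% of all symbols), 39 in P2 (33.2%), 39 in P3 (27%) and 38 in P4 (30.9%). In a pool, fewer cells of a type and less RNA per cell cannot be told apart. All 13 transport genes were found in P1 and in P2, 11 in P3 and 12 in P4. Outside transport P1 had 19, P2 had 26, P3 had 28 and P4 had 26. P1 was the poorest in structural genes, with a summed level of 371 FPKM against 733, 1327 and 2091 in P2, P3 and P4. Tmem212 was at 0 in P1 and at 97.2, 86.2 and 137 FPKM in P2, P3 and P4, and Rsph1 at 16.4, 111, 144 and 144. P1 and P4 also held all 7 choroid plexus markers, at 35818 and 20537 FPKM in sum, almost all of it Ttr, against 39.7 in P2 and 104 in P3. The share of members that came from such cells was not tested.

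The members of P3 and P4 followed single cells as the other genes did. For 16 members, S9 gave at least 90% of the summed level over the 9 cells of the P3 set and at least 10 FPKM, and P3 stood at a median of 10.6% of the S9 value (range 0.784% to 16.6%). Tekt3 was at 281 FPKM in S9 and 32.8 in P3, Tekt4 at 234 and 28.2, and Fam183b at 2109 and 242. Rsph3a and Rsph3b were the exceptions, at 0.784% and 1.31%. For 12 members that S15 dominated in the same way, P4 stood at a median of 17.9% (15.3% to 23%). Foxj1 was at 78.1 FPKM in S15 and 18 in P4, Dnaic1 at 132 and 27.1, and Dnah14 at 88.4 and 15.3. Tekt5, from S11, was at 79.0 FPKM there and 11.7 in P4, but Dnah7c, also from S11, was at 16.5 and 0. The level of Dnah7c is uncertain.

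**Figure D5:**
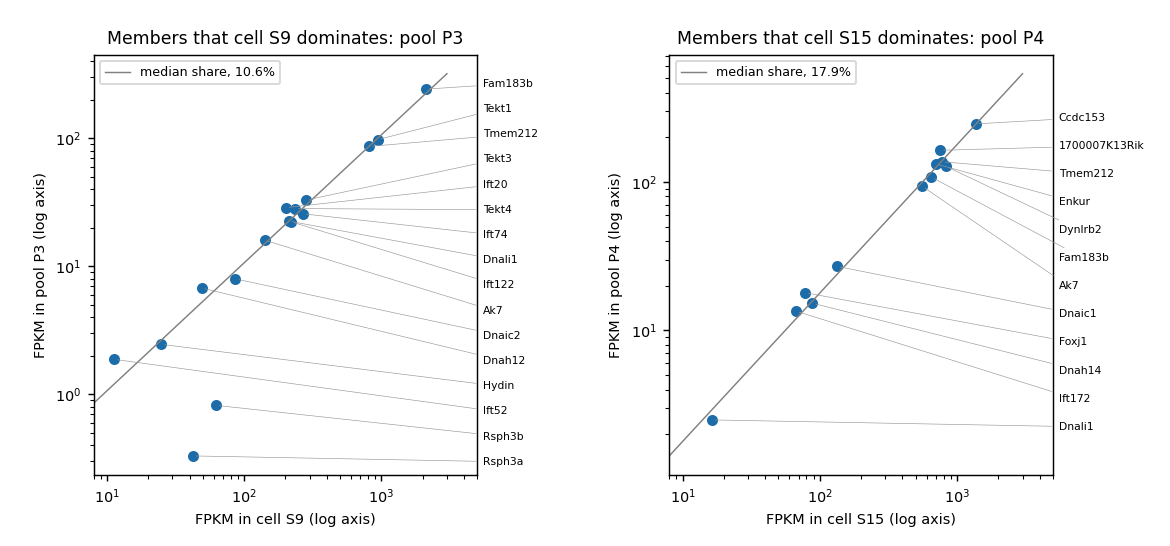
FPKM of members in pool P3 against cell S9 (left, 16 members) and in pool P4 against cell S15 (right, 12 members), both axes logarithmic, with a line at the median share, 10.6% and 17.9%. Points lie along the line over the range of levels, except Rsph3a and Rsph3b in P3.

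The mean of the pools over the mean of the cells was taken as log2((pools + 1)/(cells + 1)). That scale understates the change of low genes. Of 54 members found in some library, 6 were over 2-fold higher in the pools (12.9% of all symbols were) and 2 were over 2-fold lower (13.9% of all symbols), and the median was 0.29 against 0.06 for all. The 6 were Ift46 (1.62), Ift20 (1.31), Rsph10b (1.21), Ift57 (1.20), Dnah9 (1.07) and Ift88 (1.06), and the 2 were Ift52 (-2.91) and Dnal4 (-1.31). The higher share was near that of all symbols, and the lower one under it. Ift46 was at 219, 93.2, 15.3 and 70.9 FPKM in P1 to P4 and Ift20 at 99.5, 100.2, 28.7 and 59.3. Both lower genes had their highest cell value in S18. With only P1 and P2, the pools that did not follow cells S1 to S17, 6 members were higher and 19 lower, against 19.1% and 21.3% of all symbols, and the median was -0.49 against -0.04. The count of lower members was thus 2 with P3 and P4 and 19 without them. Against only cells S1 to S17, all 4 pools gave 2 members higher, 0 lower and a median of -0.31, and without P4 alone the median was -0.03, so the direction of the median turned with the choice of libraries.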

How the data were processed

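RNA of 28 single cells and 4 pools of 10 cells was analysed from 1 table of FPKM that the authors deposited. TopHat 1.41 and Cufflinks 2.02 were used, per the submitters' processing notes, which also name build mm9. The loci match GRCm38: 96.0% of the 39011 lines carry a GENCODE M21 gene ID and 99.7% of those overlap that gene, so GRCm38 coordinates are given. How reads were laid out, stranded or annotated was not stated per the labels. Normalization per length and depth can hide differences in total RNA.

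Lines of 1 symbol were summed, and 27 symbols turned into dates were restored from gene IDs. Members and lists were chosen with earlier results of these data known. Values were used as FPKM or log2(FPKM + 1), in Python 3.11.15 with pandas 2.3.3 and scipy 1.17.1. Members were named by class: all genes taken by name, the 4 of highest mean per class, those found nowhere, the 3 of highest mean per related list, and the 10 symbols most like the mean of members outside transport. Other members were named after their values were seen. Depth rests on an assumed fragment of 200 bases, chosen after the steps were seen. No test was run, since cells are not replicates; the computations were checked on simulated data. Alternatives were FPKM limits of 0.1 and 10, pseudocounts of 0.1 and 10, other scaling, and libraries left out. No doublet was removed. RefSeq promoters matched 45 of 57 members.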

Additional observations from a re-analysis of the deposited data

Results flagged for a closer look

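Of 51 values looked at (members and class means over the 4 pools), 9 had 1 pool far from the other 3. The rule was a gap over range above Dixon's 95% critical value for 4 samples. A chance rate of about 1 in 20 holds for independent normal values only, which these are not. Where 3 pools stood at 0, the rule flags any value above 0 in the other pool. That was so for Dnah14, its class mean, Dnaic1 and Dnah8, so the 9 cannot be set against chance. P4 stood high for the mean log2(FPKM + 1) of the unclassed heavy chain, at 4.02, which is Dnah14 alone. P4 was also high for Dnah14 itself (15.3 FPKM), Dnaic1 (27.1) and Tekt5 (11.7). In single cells Dnah14 and Dnaic1 were highest in S15 and Tekt5 in S11, 2 of the cells that P4 follows. P3 was high for Dnah8 (0.396 FPKM), which among cells was found in S2 only, a cell that P3 follows. P1 stood low for Dynlrb2 (63.9 FPKM), Ift122 (3.85), Rsph1 (16.4) and Tmem212, which was listed at 0 there.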

How the results depend on the processing

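The counts of members found in S5, S9, S10, S15 and in any cell, the count with a rho of at least 0.5 with Foxj1 and the count highest in S9 stayed within 1.5 times the reported value in every alternative run. The 2 counts of members that differ over 2-fold between pools and cells did not. The number higher, 6 as reported, was 2 with a pseudocount of 10, 38 with means of log values, where 48.5% of all symbols were higher, 2 with only cells S1 to S17, and 13 with upper quartile scaling. Leaving out 1 pool gave 3 (without P1) to 8 (without P3). The number lower, 2 as reported, was 4 with a pseudocount of 0.1, 0 with means of log values, 0 with only cells S1 to S17 and 4 with upper quartile scaling. It ran from 2 to 8 with 1 pool left out, with 4 without P1 and 8 without P3 or P4, and was 19 with only P1 and P2, an alternative added after the data were seen. The median ratio of the members was -0.31 with only cells S1 to S17, against 0.29 as reported, 0.66 with upper quartile scaling, 1.85 with means of log values and -0.03 without P4. Of the single values, Hydin rose to a rho of 0.549 without S4 or S10 and 0.569 without S15, Spag6 went to 0.428 without S9 or S10 and 0.442 without S15, and Ccdc153 to 0.510 without S4 and, as Pearson r on log2(FPKM + 1), to 0.845. The causes were not tested. No paired analysis was possible because no test was made and the numbers of cells and pools name different libraries. Depth is approximate and unknown in S18 to S28 and the pools, so a gene under FPKM of 1 was not shown to be absent.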

Other observations

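The cells with partial sets of members gave values of their own. S11, with 6 of 6 astrocyte markers, had 10 members outside transport, led by Rsph9 (365 FPKM), Dnaic2 (79.7), Tekt5 (79.0) and Dnah7c (16.5). Of these, the level of Dnah7c is uncertain, since its line is short and had no matching gene model. The same cell held Rfx3, a regulator of cilia genes, at 106 FPKM and the IFT-B genes Ift57 (178), Ift81 (170), Ift74 (141) and Ift80 (74.1), with Foxj1 at 0.0290. S12, with 5 of 6 oligodendrocyte, 7 of 8 ependymal and 4 of 6 astrocyte markers, had 9 transport genes, led by Ift46 (193), Ift20 (89.4) and Ift43 (66.5), and Enkur (26.1), Rsph3b (29.5) and Rsph3a (23.3). S4, with 5 of 6 oligodendrocyte markers, had Foxj1 at 3.28 FPKM, Rsph3b (11.4) and Rsph3a (7.36) and 7 transport genes, led by Ift20 (64.2) and Ift43 (59.95). S3 had Ccdc153 at 20.3 FPKM and Ift46 at 56.5 but none of the tektins, radial spoke genes or dynein heavy chains at FPKM of 1. The part of mixed cells in these values was not tested.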
